A study of Mus musculus with 62 samples.

Results

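Metabotropic glutamate receptors are G protein-coupled receptors that respond to glutamate over a slower time course than the ionotropic glutamate channels. The group I receptor Grm5 signals through Gq and phospholipase C, mostly on the postsynaptic side, where Homer and Shank proteins anchor it. The group II receptors Grm2 and Grm3 and the group III receptors Grm4, Grm7 and Grm8 signal through Gi and Go, lower cyclic AMP and act largely on axon terminals, where they curb transmitter release, and Grm3 is also known from astrocytes. Glutamate reaches the suprachiasmatic nucleus (SCN), the central circadian clock, from the retina, and reaches the nucleus accumbens (NAc), a reward region, from the prefrontal cortex (PFC) among other inputs.

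The 6 receptor genes Grm2, Grm3, Grm4, Grm5, Grm7 and Grm8 were chosen by symbol, through their Ensembl identifiers, among the 12483 genes of the deposited count tables. The table shared by the NAc and PFC held all 6, and that of the SCN held 5 of 6. The SCN level of Grm2 was not analysed here. RNA was sequenced from 19 SCN, 26 NAc and 17 PFC punches of 26 C57BL/6J mice, collected at ZT6, 6 h after lights on. Each library is 1 region of 1 mouse. The mice had been exposed to circadian rhythm disruption (CRD), by repeated reversals of the light-dark cycle, or were handled controls, and the brains were taken some weeks after the paradigm had ended. The study's methods name adolescent CRD for this tissue and the labels' protocol names CRD in adolescence and in adulthood. A library is labelled by region and mouse number, without its light schedule or sex, so each region here mixes these groups and the comparisons are between regions. The p-values measure the spread between libraries of such a mixture, without a term for the mouse.

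The annotation (GENCODE M21, build GRCm38) places Grm5 (ENSMUSG00000049583) at chr7:87584168-88134907 on the plus strand. Grm2 (ENSMUSG00000023192) lies at chr9:106643095-106656082 and Grm3 (ENSMUSG00000003974) at chr5:9485541-9725170, both on the minus strand. Grm4 (ENSMUSG00000063239) lies at chr17:27422387-27521403 on the minus strand, Grm7 (ENSMUSG00000056755) at chr6:110645581-111567230 on the plus strand and Grm8 (ENSMUSG00000024211) at chr6:27275119-28135178 on the minus strand. All are protein-coding genes, and counts over a gene are reads in its exons. No other annotated gene of the tables overlapped 1 of them.

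Promoter windows were found in RefSeq (GRCm38.p6) for 4 of the 6 receptors, Grm2, Grm3, Grm7 and Grm8. The 250 bases before the start of Grm2 and of Grm8 are printed, since these were the receptors with a lower transcript level in the NAc than in the PFC. The Grm2 window is chr9:106656110-106656359 and the Grm8 window, the outermost of 3 listed starts, is chr6:28135147-28135396, both on the minus strand and read 5′ to 3′. Capitals mark the GC box, searched as GGGCGG and its reverse complement CCGCCC.
Grm2: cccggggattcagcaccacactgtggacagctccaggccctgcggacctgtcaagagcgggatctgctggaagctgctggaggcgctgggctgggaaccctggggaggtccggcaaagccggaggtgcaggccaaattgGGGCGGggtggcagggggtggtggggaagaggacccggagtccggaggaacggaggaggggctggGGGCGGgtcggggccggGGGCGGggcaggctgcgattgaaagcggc
Grm8: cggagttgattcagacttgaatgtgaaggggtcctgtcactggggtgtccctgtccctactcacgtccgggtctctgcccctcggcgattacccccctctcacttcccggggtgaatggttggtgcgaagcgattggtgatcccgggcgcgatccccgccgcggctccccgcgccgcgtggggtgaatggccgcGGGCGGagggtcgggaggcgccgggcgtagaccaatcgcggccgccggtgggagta
The Grm2 window held 3 GC boxes and the Grm8 window 1. The printed windows had a GC content of 71.2% for Grm2 and 68.4% for Grm8, beside a median of 52.4% over 32851 windows of this length. The Grm3 window held 1 GC box, and both Grm7 windows, which overlap, held 1 and the same GC box. Grm3 and Grm7 differed little between the NAc and PFC. The other Grm8 windows held none, and 32.7% of all windows held at least 1. Neither the E-box CACGTG, present in 6.02% of windows, nor the TATA box letters TATAAA, present in 12.4%, occurred on either strand in a window of the 4 receptors. None of these motifs overlapped another.

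SCN libraries held 16496666 to 35389742 counts, NAc libraries 28879724 to 60009482 and PFC libraries 31216225 to 50333579. Mitochondrial ribosomal RNA took 20.5 to 51.6% of the counts in the SCN, 39.0 to 69.3% in the NAc and 42.0 to 59.1% in the PFC. Nuclear ribosomal RNA took 8.96 to 19.3% in the SCN, 1.58 to 13.3% in the NAc, with the NAc library of mouse J1159 highest, and 2.32 to 5.02% in the PFC. The SCN library of J1165 held 1403 Xist counts, and the NAc and PFC libraries of this number held 23 and 18. Xist is transcribed from the inactive X chromosome of females, so this SCN library may not come from the same mouse as the other two, which was not tested. Counts of mice in the SCN comparisons go by mouse number and include it.

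Levels are given as CPM, counts relative to library size, after 1 scaling of all 62 libraries by TMM, edgeR's trimmed mean of M-values, on the 11133 genes found in both tables. Markers of the labelled regions were checked by their summed CPM. The 7 striatal projection neuron markers, among them Ppp1r1b and Drd1, summed to 1022 to 2317 CPM in NAc libraries and to 57.6 to 116 CPM in those of the PFC. The 5 of them in the SCN table summed to 38.2 to 62.6 CPM in 17 SCN libraries, to 236 CPM in SCN J1140 and to 489 CPM in SCN J1199. The 7 cortical glutamatergic markers, among them Slc17a7 and Neurod6, summed to 833 to 985 CPM in the PFC and ranged from 12.1 to 471 CPM in the NAc, with J1199 and J1140 highest. Cux2 alone of the 7 was listed for the SCN, with 4.05 to 26.1 CPM. The 9 SCN neuron markers, among them Six6 and Vip, summed to 78.5 to 414 CPM in the SCN, and 3 of 9 were listed for the NAc (12.2 to 34.1 CPM) and PFC (21.9 to 31.6 CPM).

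The libraries of each region thus held the markers of their label, and glial markers were present in all of them. The 9 astrocyte markers had median sums of 2090 CPM (SCN), 2800 CPM (NAc) and 3102 CPM (PFC). Slc1a2 weighed most in these sums, with mean levels of 941, 2278 and 2365 CPM in this order. Each of the other astrocyte markers was higher in the SCN than in the NAc and PFC, so the sums do not rank the regions by astrocytes. The 9 oligodendrocyte markers had median sums of 1184, 1121 and 305 CPM in the same order of regions, the 5 precursor markers 101, 78.2 and 63.4 CPM, and the 8 microglial markers 126, 207 and 195 CPM. The 7 interneuron markers, 5 of them listed for the SCN, had median sums of 486, 682 and 248 CPM. Gad1, Gad2 and Slc32a1 had mean levels of 221, 341 and 88.8 CPM in the NAc and 74.8, 49.8 and 16.1 CPM in the PFC. The others, Pvalb, Sst, Vip and Npy, were lower in the NAc than in the PFC, so the sum does not stand for all 7. The 9 ependymal markers summed to 12.6 to 123 CPM in the SCN and were not listed for the NAc and PFC. In punches of bulk tissue, fewer cells of a type and less RNA per cell cannot be told apart.

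Between the NAc and PFC, 5 of the 6 receptors differed. Grm5 and Grm4 were higher in the NAc in every mouse with both regions, Grm2 and Grm8 were lower in every such mouse, Grm7 was slightly higher in the NAc and Grm3 did not pass the test. A gene was called at an adjusted p under 0.05 (edgeR's quasi-likelihood test, Benjamini-Hochberg over all 11569 genes) and a fold change of at least 1.2. These thresholds called 45.4% of all genes, 23.7% higher and 21.7% lower in the NAc, so differing between these regions was common. CPM ranges of the 2 regions did not overlap for 9.50% of all genes and for 4 of the 6 receptors.

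**Figure D1:**
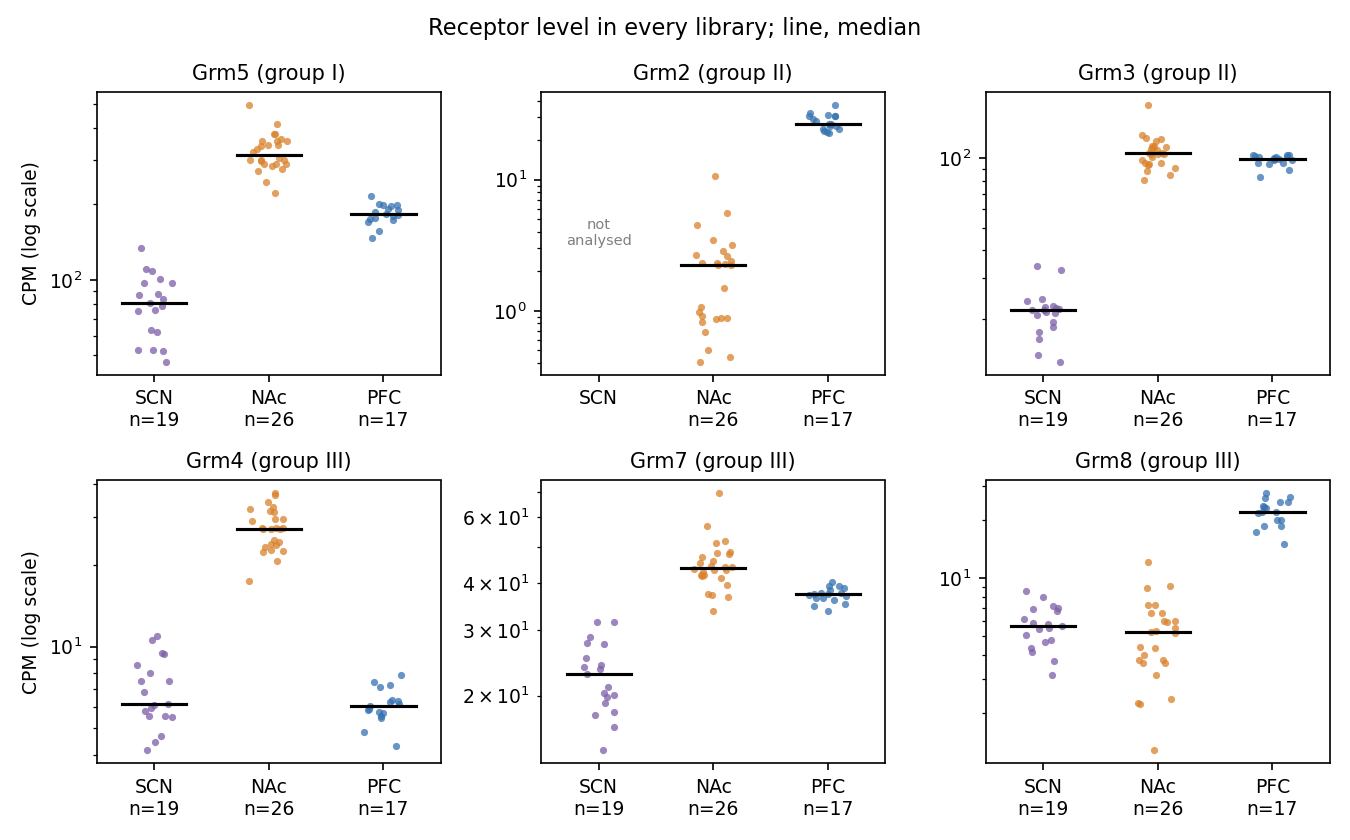
Level of each receptor in CPM (log axis, a scale of its own in each panel) in every library, with 1 point per library and a line at the median of the region. The NAc and PFC points are apart for Grm5, Grm2, Grm4 and Grm8 and overlap for Grm3 and Grm7, and the 19 SCN points lie below all NAc and PFC points for Grm5, Grm3 and Grm7.

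Grm5, the group I receptor, was measured at 222 CPM in the lowest NAc library, a median of 314 CPM and 496 CPM in the highest, that of J1018. Its PFC libraries held between 147 and 216 CPM, and the median was 183 CPM. Every NAc library was above every PFC library. The log2 fold change of the NAc over the PFC was 0.83 ± 0.067 (SE; edgeR adjusted p = 4.0e-15), with Grm5 higher in the NAc in 17 of 17 mice. Within the lower range of mouse numbers, up to J1021, and the upper range, from J1140, which may be batches, it was 0.86 and 0.79.

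Grm2, the group II receptor known as a presynaptic brake on glutamate release, had the largest difference of the 6. Its PFC levels lay between 22.6 and 37.3 CPM (median 26.6 CPM), on 727 to 1682 counts per library. NAc levels lay between 0.408 CPM (10 counts) and 10.6 CPM (median 2.24 CPM), and J1199 was highest. No NAc library reached the lowest PFC library. The log2 fold change was -3.57 ± 0.25 (SE; edgeR adjusted p = 6.7e-17), lower in the NAc in 17 of 17 mice, and -4.03 and -3.27 within the lower and upper ranges. With the mouse as a block in the 17 mice with both regions it was -4.47. These mice do not include J1199, so the block and the set of libraries changed together. The spread differed as well, with a coefficient of variation of 93.9% over NAc libraries and 14.2% over PFC libraries.

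Grm3, the other group II receptor, had almost the same level in both regions. NAc libraries held 80.3 to 171 CPM (median 105 CPM) and PFC libraries 82.9 to 104 CPM (median 99.0 CPM). The ranges overlapped, and J1018 was the highest NAc library, as it was for Grm5 and Grm7. The log2 fold change was 0.12 ± 0.057 (SE; edgeR adjusted p = 0.057), and Grm3 was higher in the NAc in 13 of 17 mice. The values within the ranges of mouse numbers were 0.15 and 0.08.

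The group III receptors went different ways. Grm4, a presynaptic receptor known from striatal projections, was at 17.5 to 36.8 CPM (median 27.3 CPM) in NAc libraries and at 4.30 to 7.89 CPM (median 6.02 CPM) in PFC libraries. The lowest NAc library was thus above the highest PFC library. Its log2 fold change was 2.16 ± 0.080 (SE; edgeR adjusted p = 2.4e-27), higher in the NAc in 17 of 17 mice and 2.04 and 2.25 within the ranges of mouse numbers. Grm4 had the largest difference towards the NAc of the 6 receptors.

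Grm7, a group III receptor placed at the release sites of terminals, was at 33.7 to 69.6 CPM (median 43.9 CPM) in NAc libraries and at 33.7 to 40.4 CPM (median 37.4 CPM) in PFC libraries. The regions overlapped, and PFC libraries were close to each other, with a coefficient of variation of 4.67%. The log2 fold change was 0.27 ± 0.055 (SE; edgeR adjusted p = 2.9e-05), a fold of 1.21 that was just past the threshold of 1.2, and 14 of 17 mice were higher in the NAc. Without NAc J1018 it was 0.24, without NAc J1019 it was 0.26 and within the upper range of mouse numbers it was 0.20, each below the fold threshold with an adjusted p of 1.0e-05, 4.0e-05 and 0.0057. Within the lower range it was 0.36. The call of Grm7 thus did not hold without either of these libraries.

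Grm8, also in group III, was at 1.28 to 12.1 CPM (median 5.23 CPM) in NAc libraries, with J1199 highest, and at 15.0 to 27.5 CPM (median 22.1 CPM) in PFC libraries. All NAc libraries were below all PFC libraries. The log2 fold change was -2.07 ± 0.16 (SE; edgeR adjusted p = 1.2e-15), lower in the NAc in 17 of 17 mice and -2.28 and -1.92 within the ranges of mouse numbers. As for Grm2, NAc libraries varied more than PFC libraries, with coefficients of variation of 46.6% and 15.5%.

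Cortical markers moved with Grm2 across NAc libraries, and with Grm8 mainly within the upper range of mouse numbers. A cortical score, the mean z-score of the 7 cortical markers, was fitted to all genes over the 26 NAc libraries, and 44.9% of genes followed it, 22.2% rising and 22.7% falling. Grm2 rose by 1.10 ± 0.090 on the log2 scale per SD of the score (SE; edgeR adjusted p = 7.5e-10). The 5 NAc libraries with the highest score had 2.66 to 10.6 CPM of Grm2 and the 5 with the lowest had 0.408 to 0.888 CPM, so these ends did not overlap. Within the lower and upper ranges of mouse numbers the slopes were 1.01 and 1.18.

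Grm8 rose by 0.43 ± 0.098 per SD of the score (SE; edgeR adjusted p = 0.0012). Its slope was 0.82 (adjusted p = 0.0019) within the upper range of mouse numbers and 0.14 (adjusted p = 0.27) within the lower range, so the relation did not hold in both. The 5 libraries with the highest score had 3.65 to 12.1 CPM and those with the lowest 1.28 to 5.55 CPM, which overlap. In the NAc library of J1199, Grm2 was at 39.8% and Grm8 at 54.9% of their PFC medians. Of the cortical markers, Neurod2 was at 87.0%, Tbr1 at 69.8%, Slc17a7, the vesicular glutamate transporter of cortical neurons, at 55.5%, Neurod6 at 34.7%, Cux2 at 31.3% and Fezf2 at 17.9% there. In the median NAc library Grm2 was at 8.41% and Grm8 at 23.7% of the PFC median, beside 28.6% for Cux2, 12.5% for Tbr1, 11.9% for Neurod2, 10.5% for Slc17a7, 7.45% for Neurod6 and 5.67% for Fezf2.

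The other receptors changed less with the score. Grm5 fell by 0.15 ± 0.041 per SD (SE; edgeR adjusted p = 0.0038), Grm3 fell by 0.13 ± 0.037 (adjusted p = 0.0055) and Grm7 fell by 0.13 ± 0.035 (adjusted p = 0.0038). Within the lower range of mouse numbers the slopes of Grm5, Grm3 and Grm7 were -0.10, -0.14 and -0.14, and within the upper range -0.19, -0.11 and -0.11, and of these the Grm5 slope in the upper range alone was called. Grm4 had a slope of -0.045 ± 0.049 (SE; edgeR adjusted p = 0.47). Without the 5 NAc libraries highest in Slc17a7 the log2 fold change of the NAc over the PFC was -4.08 for Grm2 and -2.31 for Grm8, and 0.89, 0.18, 2.21 and 0.31 for Grm5, Grm3, Grm4 and Grm7. These differences were as large without those libraries as with them.

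**Figure D2:**
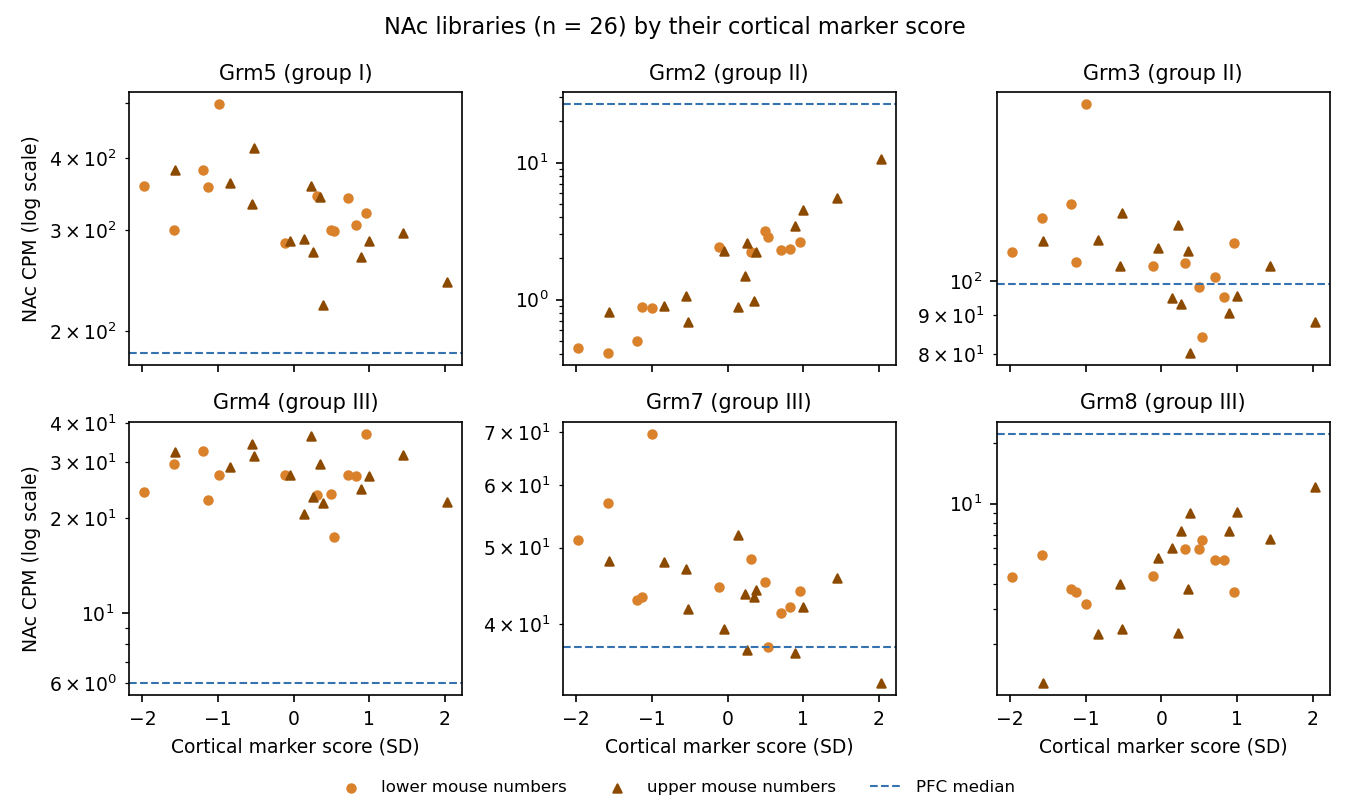
Level of each receptor (CPM, log axis) in the 26 NAc libraries against their cortical marker score in SD units, with 1 point per library, circles for lower and triangles for upper mouse numbers, and a dashed line at the PFC median. Grm2 climbs with the score from 0.408 to 10.6 CPM without reaching its PFC line, Grm8 climbs mainly among the triangles and the slope of Grm4 (-0.045) was not called.

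In the SCN, 4 of the 5 measured receptors were lower than in the NAc and 4 of 5 were lower than in the PFC. These contrasts came from 1 fit over all 62 libraries on 11133 genes and share the SCN libraries. They called 64.1% of genes for the SCN against the NAc, 33.1% higher and 31.0% lower in the SCN, and 64.7% for the SCN against the PFC, 33.7% higher and 31.0% lower. Ranges did not overlap for 13.2% and 20.7% of genes. The SCN came in a table of its own with more nuclear ribosomal RNA, and the region and the making of its table cannot be told apart.

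**Figure D3:**
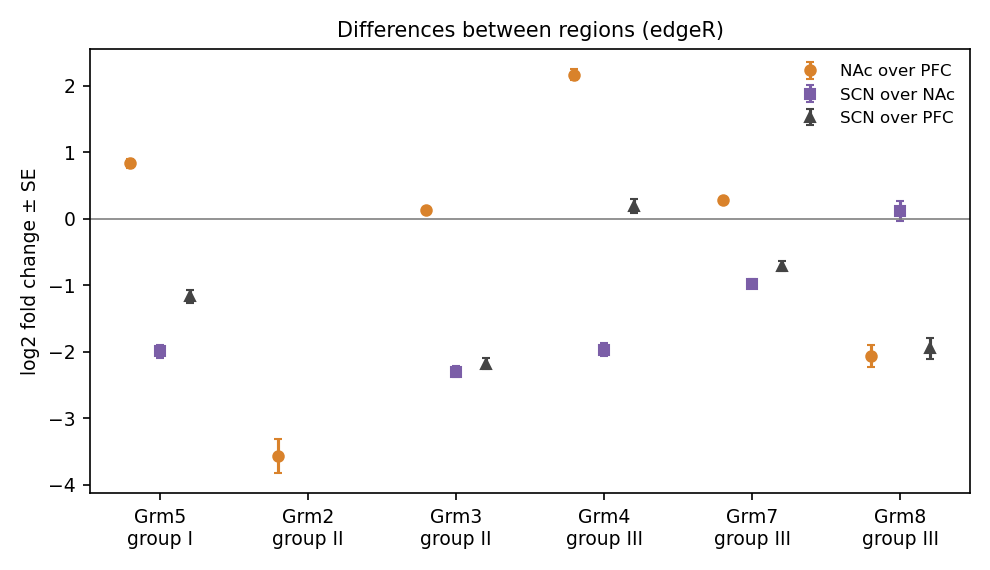
Log2 fold change of each receptor between regions, with error bars of 1 SE from edgeR that are hidden by the symbol where they are small, and no SCN value for Grm2. Circles (NAc over PFC) lie farthest above 0 for Grm5 and Grm4 and below 0 for Grm2 and Grm8, squares (SCN over NAc) lie below -0.9 except for Grm8 and triangles (SCN over PFC) lie below -0.7 except for Grm4.

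Grm5 was at 47.2 to 134 CPM (median 80.6 CPM) in SCN libraries, with J1199 highest, and no SCN library reached an NAc or a PFC library. Its log2 fold change was -1.999 ± 0.092 against the NAc (SE; edgeR adjusted p = 1.7e-29) and -1.17 ± 0.096 against the PFC (adjusted p = 1.6e-17). It was lower in the SCN for all 19 mouse numbers with an NAc library and all 12 with a PFC library. Grm3 was at 13.0 to 34.2 CPM (median 21.9 CPM) in the SCN, again with J1199 highest. All its SCN libraries were below all others, with log2 fold changes of -2.30 ± 0.078 against the NAc (SE; edgeR adjusted p = 4.8e-36) and -2.18 ± 0.082 against the PFC (adjusted p = 5.0e-34). Grm3, which barely differed between the NAc and PFC, thus had the largest SCN difference of the 5 against either region.

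Grm7 was at 14.3 to 31.5 CPM (median 22.8 CPM) in the SCN. It was below all NAc and PFC libraries, with log2 fold changes of -0.98 ± 0.070 (SE; edgeR adjusted p = 2.8e-20) and -0.71 ± 0.075 (adjusted p = 4.3e-13), the smallest called SCN differences. Grm4 and Grm8 differed from 1 region each. Grm4 was at 4.15 to 10.9 CPM (median 6.13 CPM) with J1140 highest, which was below every NAc library (log2 fold change -1.97 ± 0.096, edgeR adjusted p = 2.5e-28) and overlapped the PFC (0.19 ± 0.10, adjusted p = 0.082), where 6 of 12 mouse numbers were higher in the SCN. Grm8 was at 3.15 to 8.61 CPM (median 5.66 CPM), which was below every PFC library (log2 fold change -1.95 ± 0.16, edgeR adjusted p = 6.8e-17) and overlapped the NAc (0.12 ± 0.15, adjusted p = 0.47), where 10 of 19 mouse numbers were higher in the SCN. For Grm8 against the NAc the value was 0.43 (adjusted p = 0.012) within the lower range of mouse numbers and -0.079 (adjusted p = 0.77) within the upper range, so its direction was not the same in both.

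Within the ranges of mouse numbers the other values against the NAc were -2.16 and -1.87 for Grm5, -2.47 and -2.17 for Grm3, -2.03 and -1.94 for Grm4 and -0.96 and -0.96 for Grm7. Against the PFC they were -1.30 and -1.08 for Grm5, -2.32 and -2.09 for Grm3, -0.60 and -0.76 for Grm7 and -1.85 and -1.996 for Grm8, with 0.018 and 0.31 for Grm4. The 2 SCN libraries with striatal markers, J1199 and J1140, held 134 and 100 CPM of Grm5, 34.2 and 22.8 CPM of Grm3 and 9.49 and 10.9 CPM of Grm4. Without them the log2 fold changes against the NAc were -2.08 for Grm5, -2.35 for Grm3, -2.05 for Grm4, -1.03 for Grm7 and 0.13 for Grm8. The differences against the NAc of the 4 lower receptors were as large without these libraries. Without SCN J1165 they were -2.01, -2.34, -2.01 and -0.98, and 0.098 for Grm8.

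Within the SCN, Grm7 fell as SCN neuron markers rose. The score was the mean z-score of the 9 SCN neuron markers over 19 libraries, and 3.51% of all genes followed it, 1.60% rising and 1.90% falling. Slopes were again called on the adjusted p alone, without a fold threshold. Grm7 fell by 0.23 ± 0.050 on the log2 scale per SD of the score (SE; edgeR adjusted p = 0.0077), from 27.5 to 31.5 CPM in the 5 libraries with the lowest score to 14.3 to 23.8 CPM in the 5 with the highest. The slope was -0.30 (adjusted p = 0.034) within the upper range of mouse numbers and -0.14 (adjusted p = 0.50) within the lower, and -0.22 (adjusted p = 0.073) without SCN J1199 and SCN J1140, so the call did not hold in each. The slopes of Grm5, Grm3, Grm4 and Grm8 were -0.20, -0.12, -0.13 and -0.21 with adjusted p of 0.24, 0.50, 0.58 and 0.16, and none was called.

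Levels were compared between receptors as CPM per kilobase of merged exons. Grm3 and Grm5 had the highest levels in all 3 regions. In the NAc, medians were 34.5 for Grm3, 30.6 for Grm5, 7.46 for Grm7, 4.57 for Grm4, 0.53 for Grm8 and 0.46 CPM per kilobase for Grm2. In the PFC, they were 32.5 for Grm3, 17.9 for Grm5, 6.36 for Grm7, 5.44 for Grm2, 2.23 for Grm8 and 1.01 CPM per kilobase for Grm4. In the SCN, they were 7.86 for Grm5, 7.19 for Grm3, 3.88 for Grm7, 1.02 for Grm4 and 0.57 CPM per kilobase for Grm8.

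Some neighbours in these orders were close. Grm5 was above Grm3 in 14 of 19 SCN libraries and Grm3 above Grm5 in 21 of 26 NAc libraries, while Grm3 was above Grm5 in all 17 PFC libraries. Grm8 was above Grm2 in 18 of 26 NAc libraries, Grm7 above Grm2 in 14 of 17 PFC libraries and Grm4 above Grm8 in 18 of 19 SCN libraries. Every other pair of neighbours kept its order in every library. The order of Grm3 and Grm5 depended on the length used, since the longest transcript of each gene gave median NAc shares of 43.5% for Grm5 and 37.1% for Grm3.

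The level of the 5 receptors measured in all regions, summed per kilobase, was 14.7 to 31.8 (median 19.97) in SCN libraries, 60.1 to 121 (median 79.7) in NAc libraries and 51.9 to 63.6 CPM per kilobase (median 60.3) in PFC libraries. The SCN was below both other regions in every library. Shares of this sum add to a fixed total, so 1 receptor's share moves with the others. The median share of Grm5 was 38.7% (SCN), 39.9% (NAc) and 29.4% (PFC), and its NAc shares (34.8 to 43.7%) did not overlap its PFC shares (27.7 to 33.2%). Grm3 took 35.3, 43.7 and 54.0% in the same order of regions, with PFC shares of 51.1 to 56.7% above all others.

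Grm7 took 18.4, 9.51 and 10.6%. Grm4 took 5.55, 5.95 and 1.67%, and Grm8 took 2.76, 0.67 and 3.77%. With the longest transcript as the length, the shares of Grm8 were 4.65, 1.18 and 6.63%. The 3 group III receptors together made up 21.9 to 36.7% in the SCN, above the 13.5 to 20.2% of the NAc and the 15.1 to 18.6% of the PFC. With all 6 receptors of the NAc and PFC table, Grm2 took 0.099 to 3.30% of the sum in the NAc and 6.92 to 11.8% in the PFC, and the group II pair took a median of 44.1% and 57.7%.

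**Figure D4:**
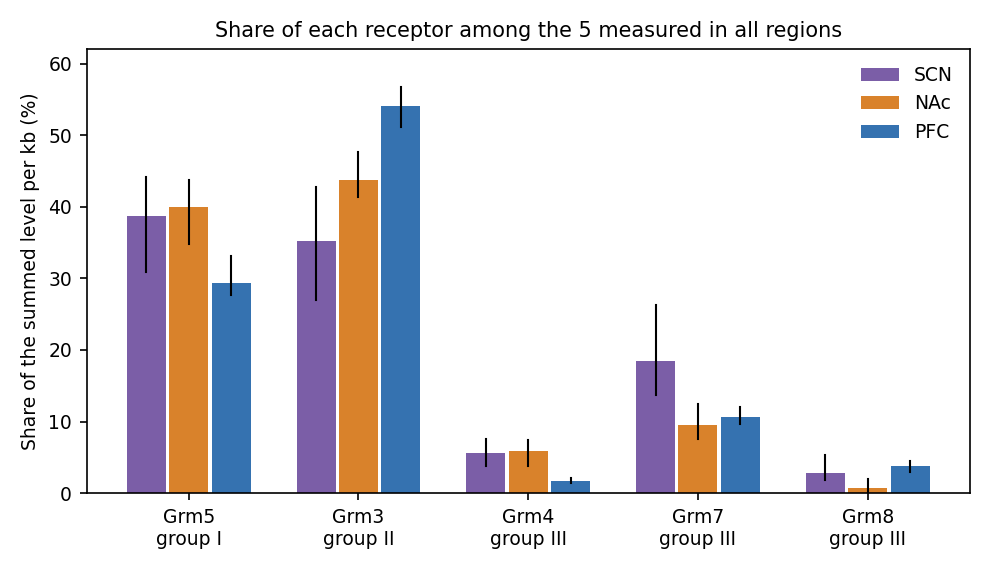
Median share of each receptor (bars, % of the level per kilobase summed over the 5 receptors measured in all regions), with lines from the lowest to the highest library of the SCN (n = 19), NAc (n = 26) and PFC (n = 17). Grm3 has its largest share in the PFC (54.0%), Grm7 in the SCN (18.4%), and Grm4 its smallest in the PFC (1.67%).

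Genes of the same signalling pathways were compared between the NAc and PFC from lists by role. Of 15 group I partners and effectors, 14 were measured, 3 were higher in the NAc, 7 were lower and 4 were not called, with a median log2 fold change of -0.26 beside 0.016 over all genes. The 3 largest were Homer2, a scaffold that binds Grm5, at -2.35 ± 0.13 (SE; edgeR adjusted p = 1.1e-20), Shank1, a postsynaptic scaffold, at -1.54 ± 0.18 (adjusted p = 6.3e-10) and Plcb4, a phospholipase C, at -1.30 ± 0.17 (adjusted p = 9.5e-09). All 3 were lower in the NAc. The 3 genes higher in the NAc, as Grm5 was, were Ncdn at 0.70 ± 0.13 (edgeR adjusted p = 1.4e-05), Shank3 at 0.43 ± 0.11 (adjusted p = 5.3e-04) and Itpr1 at 0.33 ± 0.12 (adjusted p = 0.019). Homer1, at 0.12 ± 0.11 (adjusted p = 0.35), was among the 4 not called.

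Of 15 group II and III partners and effectors, 1 was higher in the NAc, 7 were lower and 7 were not called (median log2 fold change -0.35). The 1 higher gene was Adcy5, the main adenylyl cyclase of the striatum, at 3.004 ± 0.11 (SE; edgeR adjusted p = 8.1e-28), from a median of 61.9 CPM in the PFC to 475 CPM in the NAc. Adcy1, a calcium-stimulated adenylyl cyclase, was at -2.08 ± 0.11 (edgeR adjusted p = 3.7e-22) and Kcnj6, a subunit of the G protein-gated potassium channel, at -1.72 ± 0.13 (adjusted p = 2.1e-16). The G protein genes Gnai1, Gnai2, Gnai3 and Gnao1 were not called. Of these, Gnai1 missed the fold threshold alone, at -0.21 ± 0.035 (edgeR adjusted p = 1.4e-06), a fold of 1.16, and was higher in the NAc in 0 of 17 mice.

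Of 9 genes that handle glutamate or N-acetylaspartylglutamate, a peptide known as an agonist of Grm3, 8 were measured, 2 were higher in the NAc, 3 were lower and 3, the glutamate transporters Slc1a1, Slc1a2 and Slc1a3, were not called (median log2 fold change -0.060). Rimkla was at 1.39 ± 0.097 (SE; edgeR adjusted p = 3.4e-17), and Folh1, which cleaves the peptide, at 0.66 ± 0.095 (adjusted p = 5.3e-08). Rimklb of the same list went the other way, at -0.40 ± 0.051 (edgeR adjusted p = 2.5e-09), higher in the NAc in 0 of 17 mice. Mean levels in the NAc and PFC were 4.22 and 1.60 CPM for Rimkla and 15.7 and 20.8 CPM for Rimklb. Slc7a11, the cystine-glutamate exchanger, was at -1.29 ± 0.069 (edgeR adjusted p = 3.1e-21).

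In the SCN against the NAc, 3 group I partners were higher, 8 were lower and 3 were not called (median log2 fold change -1.003), and against the PFC 1 was higher, 10 were lower and 3 were not called (median -1.54), beside medians over all genes of 0.016 and 0.032. Homer2 was at 0.31 ± 0.12 against the NAc (SE; edgeR adjusted p = 0.019) and -2.05 ± 0.14 against the PFC. Of the 14 group II and III partners measured, 6 were higher, 4 lower and 4 not called against the NAc (median -0.018), and 3 were higher, 9 lower and 2 not called against the PFC (median -0.70). Adcy5 was at -2.61 ± 0.13 against the NAc and 0.39 ± 0.13 against the PFC. Of the 8 handling genes, 3 were higher and 3 lower than in the NAc, with 2 not called (median 0.098), and 4 were higher and 4 lower than in the PFC (median 0.18). Folh1 was at 0.86 ± 0.089 and 1.52 ± 0.10.

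The genes most like each receptor were found by Pearson's r of log2 CPM, with each library taken as its deviation from the mean of its region, over 62 libraries and 11132 other genes. These values describe libraries that share depth and tissue content. For Grm5 they were Dock4 (r = 0.81), Kcna4 (0.76) and Grm3 (0.76), and for Grm3 they were Dock4 (0.78), Grm5 (0.76) and Itgav (0.73). For Grm4 they were Lingo3 (0.71), Cacng3 (0.71) and Rasd2 (0.69), and for Grm7 Adgrb3 (0.78), Adra2c (0.77) and Grik2 (0.77). For Grm8 they were Cpne7 (0.78), B3galt2 (0.76) and Efhd2 (0.76). Grm2 was compared over the 43 NAc and PFC libraries, and its nearest genes were Hapln4, Rtn4rl2 and Pak1, each with r = 0.94. Grm3 and Grm5 were thus among each other's nearest genes, and no other pair of the receptors was.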

How the data were processed

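RNA was sequenced as paired ends from 62 punches. After quality checks with FastQC 0.11.7, the authors used HISAT2 for alignment (Ensembl GRCm38) and HTSeq (union mode) for counting, removed low and Y-linked genes and deposited raw counts per gene, in a table of 12047 rows for the SCN and one of 11569 rows for the NAc and PFC. Ribosomal RNA takes a large and unequal part of the counts, which lowers the depth left for other genes. Intervals and errors reflect the spread between libraries.

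The receptors and all gene lists (cortical, striatal, SCN neuron, ependymal, astrocyte, oligodendrocyte, precursor, microglial and interneuron markers, and 3 pathway lists) were chosen with earlier results of these data known. All receptors are named, and of each pathway list the 3 called genes with the largest absolute log2 fold change between the NAc and PFC. Likeness names the 3 genes with the highest r, computed for Grm2 over the NAc and PFC alone because that receptor is in 1 table. Homer2, Adcy5 and Folh1 in the SCN, and the genes listed as not called, were picked after their values were seen. So were Ncdn, Shank3, Itpr1 and Rimklb between the NAc and PFC, and the single astrocyte and interneuron markers named beside their sums.

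Counts were tested with edgeR 4.0.16 in R 4.3.3 (glmQLFit, glmQLFTest, TMM, filterByExpr, two-sided), with no block, after a test on simulated data. The NAc against PFC fit was scaled on its own table, and the fit with the SCN, like the levels, on the genes of both tables. The alternative tool was DESeq2 1.42.0. Log2 CPM used a prior count of 2. Gene lengths and positions came from GENCODE M21, matched for 11545 of the 11569 NAc and PFC rows and 12020 of the 12047 SCN rows. Calculations outside R used Python 3.11.15, numpy 2.4.6 and pandas 2.3.3. The 17 mice with NAc and PFC libraries pair them, since both come from 1 animal. The correlation of paired deviations from the region means ran from -0.449 to 0.272 (median 0.0061) and was over 0.1 in 7 of 17 mice. No 2 libraries held the same counts. Effects of CRD and sex, which the labels do not give, and the behavior of the mice were not analysed here.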

Additional observations from a re-analysis of the deposited data

How the results depend on the processing

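Between the NAc and PFC, the call and direction of Grm5, Grm2, Grm3, Grm4 and Grm8 held under DESeq2, its size factors, other filters, removal of mitochondrial and ribosomal RNA genes, each range of mouse numbers, without J1159, J1165 or the 5 NAc libraries highest in Slc17a7, and without each library in turn, where genes called ran from 5187 to 5314 and receptors called from 4 to 5. With the mouse number as a replicate block in the 17 mice with both regions, the log2 fold changes of Grm5, Grm2, Grm3, Grm4, Grm7 and Grm8 were 0.88, -4.47, 0.14, 2.14, 0.31 and -2.38 and 5681 genes were called, against 5743 in the same mice unblocked. The block changed no receptor's call. Of 43 receptor and pathway genes, Itpr1 and Elfn1 differed in call from the fit over all libraries and 0 from the same mice unblocked. In the SCN fits, blocked values against the NAc were -2.01 for Grm5, -2.31 for Grm3, -1.98 for Grm4, -0.99 for Grm7 and 0.18 for Grm8. Against the PFC they were -1.17, -2.18, 0.16, -0.73 and -2.11, and no call changed, as without SCN J1165. Grm8 in the SCN against the NAc turned to -0.079 within the upper range. Genes following the cortical score in the NAc fell from 5190 to 2186 within the lower range, 1548 within the upper and 2548 once J965 and J1019, whose scores lie farthest from the median, were left out, and receptors called from 5 to 1 and 3 within the ranges. Smaller numbers of libraries go into these fits. Genes following the SCN neuron score fell from 422 to 121 within the lower range, 227 within the upper, 149 without the 2 farthest libraries (J1199 and J1018) and 227 without J1199 and J1140. The 1 receptor called, Grm7, became 0 within the lower range, without the 2 farthest and without J1199 and J1140, with slopes of -0.14, -0.28 and -0.22. The slopes of Grm3 and Grm4 turned to 0.069 and 0.050 within the lower range. Shares moved by more than 1 SD in 32 of 54 recomputed values, with another gene length or none, and levels in 28 of 68. Scaling each table on its own for the levels was chosen after the data had been seen. Depth limits Grm2 in the NAc most, where the lowest library held 10 counts.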
